A study of Homo sapiens with 2 samples.

Results

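Translation initiation factors were examined in bulk RNA sequencing of 1 DR-labelled library and 1 WT-labelled library. Genes were selected by symbol, taking every symbol that starts with EIF and a digit apart from the eIF2 kinases (EIF2AK) and EIF1AY, which gave 49 of the 18930 genes listed in the table. The symbols alone decide membership, but the set, its classes and the interest in EIF4G2 were proposed with the counts of these same libraries known. The differences below are therefore a description, with no test. All 49 genes had at least 10 reads over both libraries and were kept, among 16210 genes kept in all.

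Both samples carry the labels of A375, a human melanoma line, grown in DMEM with serum (RPMI for tumor cells in the study's methods). The labels name the same treatment for both, "DITC" for 105 days, whereas the methods of the study describe the drug as dacarbazine (DTIC), a DNA-alkylating agent given at increasing concentrations to obtain the resistant DR cells, and use WT for the wild-type controls. Columns and samples were matched through the sample descriptions, which differ by 1 character, and every direction given here rests on them. The libraries held 54878355 reads (DR) and 35294670 reads (WT). With 1 library per label there is no replicate error. Each bracketed range below is a 95% Clopper-Pearson interval for read counting only, so that a difference is one between libraries and not between conditions. Reads are not independent molecules, which such intervals ignore.

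The labelled cell type was compared with defining markers. Of 8 melanocyte or melanoma genes, 6 had counts, and the 5 of them kept summed to 41.4 and 40.5 CPM. The highest of them was MITF, at 34.5 CPM (reads scaled to library size) in the DR-labelled library and 34.8 CPM in the WT-labelled library, while SOX10 had 3 reads and 0 reads and TYRP1 had 0 and 17. All 8 plasma cell markers were detected, with summed levels of 4581 and 5706 CPM and JCHAIN, the joining chain of immunoglobulins, at 2009 and 2922 CPM. They differed in direction, as 5 of the 8 were lower in the DR-labelled library and 3 were higher. The higher ones were MZB1 (450 and 225 CPM), CD38 (125 and 70.1 CPM) and PRDM1 (402 and 284 CPM). The markers of the labelled cell type were thus near 0 or low, and the samples are named by their labels only. Fibroblast and keratinocyte markers summed to 10.3 and 3.13 CPM and to 21.0 and 25.1 CPM. The part of cell identity in the differences below was not tested, and in bulk RNA fewer cells of a type and less RNA per cell cannot be told apart.

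Initiation begins when eIF2, bound to GTP and the initiator methionyl-tRNA, joins eIF1, eIF1A, eIF3 and eIF5 on the small ribosomal subunit. The eIF4F complex, made of the cap-binding protein eIF4E, the helicase eIF4A and the scaffold eIF4G, brings the mRNA. After scanning, eIF1 and eIF5 set how strictly the start codon is recognised, eIF2 hydrolyses its GTP, and eIF5B joins the large subunit. The cycle is reset by eIF2B, the exchange factor of eIF2, and is restrained by eIF4E-binding proteins and by kinases that phosphorylate the alpha subunit of eIF2. Fast protein synthesis places a high demand on this machinery in secretory and cancer cells.

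The initiation factors as a group differed little between the libraries. Fold changes were taken as log2 of CPM plus 0.5 after scaling of the library sizes by the TMM method, the DR-labelled library over the WT-labelled library. The median log2 fold change of the 49 genes was -0.003, beside 0.007 over all genes kept and -0.04 over the 9860 more abundant genes, which averaged 10 CPM or more. Their standard deviation was 0.43, beside 0.78 and 0.70. A log2 fold change within 0.5 in size (1.41-fold) was seen for 38 of the 49 genes, or 77.6%, beside 68.3% of all genes kept and 73.5% of the genes at 10 CPM or more.

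Past that size, 2 initiation factors were higher in the DR-labelled library (4.08%), beside 17.6% of all genes kept and 12.0% of those at 10 CPM or more. In the other direction 9 were lower (18.4%), beside 14.1% and 14.5%, a share close to the background. At a log2 fold change of 1 or more, 1 gene was higher (EIF4E3), where the background was 7.42% and 4.03%, and 1 was lower (EIF4G2), where it was 4.19% and 3.68%. The 9 lower genes were EIF4G2, EIF5, EIF2S1, EIF1B, EIF2B2, EIF1, EIF1AX, EIF2B1 and EIF4E, and the 2 higher genes were EIF4E3 and EIF3CL. The last of them just inside the limit were EIF2B1 and EIF4E, both at -0.50, and the first outside it was EIF3H at 0.38. Counting intervals lay wholly above 0 for 18 of the 49 genes and wholly below 0 for 23, and over all genes kept for 5740 and 5665 of 16210. At this depth such an interval leaves out 0 for most genes, so it does not by itself set a gene apart. The summed level of the 49 genes was 11256 CPM and 12528 CPM, a log2 ratio of -0.15 beside -0.04 for all genes kept.

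**Figure D1:**
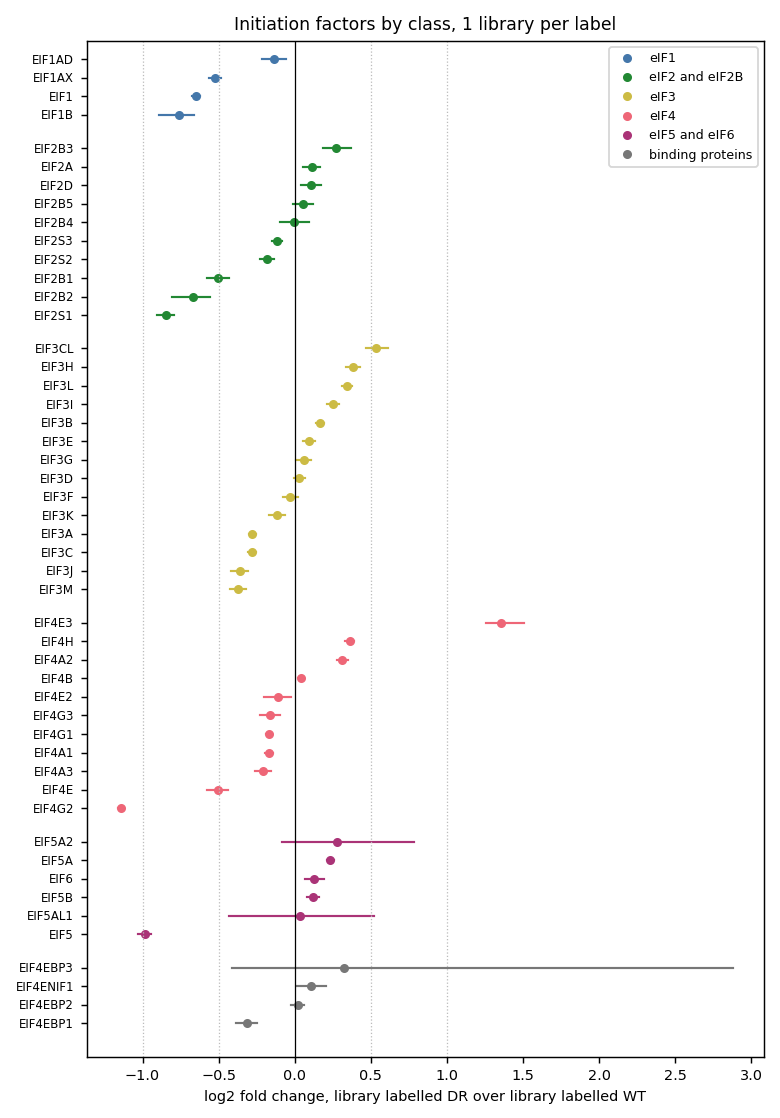
Log2 fold change of each initiation factor (x axis, DR-labelled library over WT-labelled library), grouped by class, where points are the values with 0.5 CPM added and bars the 95% counting intervals without it. EIF4G2 (-1.14) and EIF5 (-0.98) lie furthest to the left and EIF4E3 (1.36) furthest to the right, while 13 of the 14 eIF3 genes lie within 0.5 of 0.

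**Figure D2:**
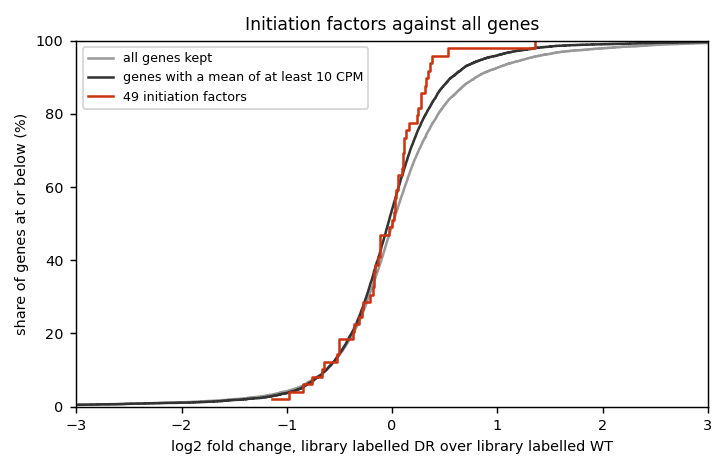
Share of genes (y axis, %) at or below each log2 fold change (x axis, drawn from -3 to 3) for the 49 initiation factors, all 16210 genes kept and the 9860 genes averaging 10 CPM or more. The line of the initiation factors follows the others below 0 and runs above them to the right, since 4.08% of these genes, against 17.6% and 12.0%, reach 0.5.

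EIF4G2, also known as DAP5, is a relative of the eIF4G scaffold that lacks the eIF4E-binding region and serves initiation on selected mRNAs. It had 35140 reads in the DR-labelled library and 48555 in the shallower WT-labelled library, or 631 and 1396 CPM. The log2 fold change was -1.14 (-1.16 to -1.12), a 2.21-fold lower level (2.18 to 2.24), at percentile 3.23 of all genes kept. None of its 50-base words (0%) occurs in transcripts of other genes in GENCODE release 29.

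The relatives of EIF4G2 lay closer to 0. EIF4G1, the main scaffold of eIF4F, had 966 and 1087 CPM, a log2 fold change of -0.17 (-0.19 to -0.15). EIF4G3, its paralogue, had 85.5 and 95.6 CPM, a log2 fold change of -0.16 (-0.23 to -0.10). After division by gene length and scaling to the same sum in each library (length-scaled level, TPM), EIF4G2 stood at 363 TPM and EIF4G1 at 392 TPM in the DR-labelled library, and at 809 and 445 TPM in the WT-labelled library. The order of the pair was thus opposite in the libraries, with an EIF4G2 to EIF4G1 ratio of 0.927 (0.914 to 0.939) and of 1.82 (1.80 to 1.85). By length-scaled level EIF4G2 ranked 341 of the genes kept in the DR-labelled library and 154 in the WT-labelled library.

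Promoter sequences are shown for 5 of the 9 lower genes, picked after their values were seen so that different roles are represented: EIF4G2 (scaffold), EIF5, EIF2S1 and EIF1 (start codon recognition) and EIF4E (cap binding). Each is the 250 bases before the annotated start, for EIF4G2 and EIF5 the most upstream of 2 starts, read 5′ to 3′ on the strand of the gene from RefSeq on GRCh38.p14. Capitals mark CACGTG (the E-box that MYC and USF proteins can bind), CCAAT and GGGCGG, on either strand.
EIF4G2, chr11:10808927-10809176, minus strand: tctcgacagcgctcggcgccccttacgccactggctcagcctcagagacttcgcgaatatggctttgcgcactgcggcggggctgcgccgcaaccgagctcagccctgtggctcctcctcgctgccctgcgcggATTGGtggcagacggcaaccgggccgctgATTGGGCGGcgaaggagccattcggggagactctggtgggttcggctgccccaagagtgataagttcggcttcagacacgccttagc
EIF5, chr14:103333987-103334236, plus strand: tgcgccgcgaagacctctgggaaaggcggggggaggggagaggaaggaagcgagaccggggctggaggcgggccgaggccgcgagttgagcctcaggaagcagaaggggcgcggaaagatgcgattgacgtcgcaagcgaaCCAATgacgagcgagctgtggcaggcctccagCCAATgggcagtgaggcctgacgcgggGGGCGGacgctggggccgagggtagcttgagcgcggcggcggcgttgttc
EIF2S1, chr14:67360078-67360327, plus strand: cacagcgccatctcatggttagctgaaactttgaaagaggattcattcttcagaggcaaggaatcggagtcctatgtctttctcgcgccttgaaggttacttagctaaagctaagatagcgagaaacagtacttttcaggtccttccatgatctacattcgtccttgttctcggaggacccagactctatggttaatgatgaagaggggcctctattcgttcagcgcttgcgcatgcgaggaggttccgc
EIF1, chr17:41688635-41688884, plus strand: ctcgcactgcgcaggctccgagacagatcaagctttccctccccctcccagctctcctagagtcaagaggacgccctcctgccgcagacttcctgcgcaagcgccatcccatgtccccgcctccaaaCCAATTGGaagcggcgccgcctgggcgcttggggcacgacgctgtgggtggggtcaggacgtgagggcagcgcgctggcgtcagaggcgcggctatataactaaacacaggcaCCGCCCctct
EIF4E, chr4:98929134-98929383, minus strand: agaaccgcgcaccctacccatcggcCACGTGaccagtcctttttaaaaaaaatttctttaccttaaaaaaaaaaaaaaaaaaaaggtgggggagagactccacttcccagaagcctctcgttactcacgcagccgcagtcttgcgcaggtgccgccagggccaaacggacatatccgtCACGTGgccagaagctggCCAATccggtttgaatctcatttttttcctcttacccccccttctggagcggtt
The EIF4E window held 2 E-boxes and the other 4 windows shown held 0, while EIF1B, a lower gene whose window is not shown, also held the motif. In the EIF1 window the 2 CCAAT matches, one per strand, overlap. The EIF2S1 window held none of these motifs and had the lowest GC content of the 5, 48.0%, beside 50.4% for EIF4E, 65.6% for EIF1, 66.0% for EIF4G2 and 69.2% for EIF5.

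Promoter windows were found for 41 of the 49 genes. At least 1 CACGTG was held by 11 of the 41 genes (26.8%), beside 10.6% of the 12803 kept genes with a window and 7.73% of all 27305 genes of the promoter table. By window the shares were 19.6% of 56, 7.76% and 6.35%. The 11 genes were EIF1B, EIF2B3, EIF3F, EIF3K, EIF4A3, EIF4B, EIF4E, EIF4EBP3, EIF4G1, EIF4H and EIF5A2, which include 2 of the 9 lower genes (EIF1B and EIF4E). CCAAT was held by 43.9% of the members, beside 40.8% of kept genes and 37.0% of all, and GGGCGG by 73.2%, beside 69.7% and 46.2%. A match describes letters only, and no factor was measured at these windows.

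In the eIF1 class, 3 of the 4 genes were lower in the DR-labelled library by 0.5 or more, beside 14.1% of all genes kept and 14.5% of those at 10 CPM or more. The median log2 fold change of the class was -0.59, beside 0.007 and -0.04. EIF1, which keeps the scanning ribosome from stopping at poor start codons, had 20295 and 19883 reads, or 365 and 571 CPM. Its log2 fold change was -0.65 (-0.68 to -0.62). Its paralogue EIF1B had 21.5 and 36.9 CPM, a log2 fold change of -0.76 (-0.89 to -0.66). EIF1AX, the X-linked gene of eIF1A, had 186 and 267 CPM, a log2 fold change of -0.52 (-0.56 to -0.48). EIF1AD, a protein with an eIF1A-like domain, had 56.4 and 62.1 CPM and a log2 fold change of -0.14 (-0.22 to -0.06). The length-scaled level of EIF1 was 615 and 972 TPM, the highest of the class, and that of EIF1AD, 43.8 and 48.7 TPM, the lowest in both libraries. EIF1 and EIF1B have 0% of their 50-base words in common. EIF1 shares 4.25% of its words with other annotated genes, and the part of such reads was not tested.

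EIF5, the GTPase-activating protein of eIF2 and a partner of eIF1 on the small subunit, had 8239 reads in the DR-labelled library and 10194 in the WT-labelled library, or 148 and 293 CPM. The log2 fold change was -0.98 (-1.03 to -0.94), just short of 1. The other genes of its class did not share that size. EIF5B, which joins the ribosomal subunits, had 283 and 261 CPM and a log2 fold change of 0.12 (0.08 to 0.16). The length-scaled ratio of EIF5 to EIF5B was 0.412 (0.401 to 0.423) in the DR-labelled library and 0.886 (0.861 to 0.912) in the WT-labelled library.

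EIF5A, the hypusine-modified factor that relieves stalled ribosomes, was the member with the highest length-scaled level in both libraries, 1248 and 1071 TPM. It had 755 and 642 CPM, a log2 fold change of 0.23 (0.21 to 0.26). Its relatives EIF5A2 and EIF5AL1 were near the bottom, at 138 and 68 reads and at 102 and 62 reads, and their counting intervals (-0.09 to 0.78 and -0.43 to 0.52) both held 0. EIF5AL1 transcripts hold 30.1% of the words of EIF5A, so the division of reads between them is uncertain. EIF6, which holds the large subunit apart from the small one, had 95.9 and 87.7 CPM and a log2 fold change of 0.13 (0.07 to 0.19).

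**Figure D3:**
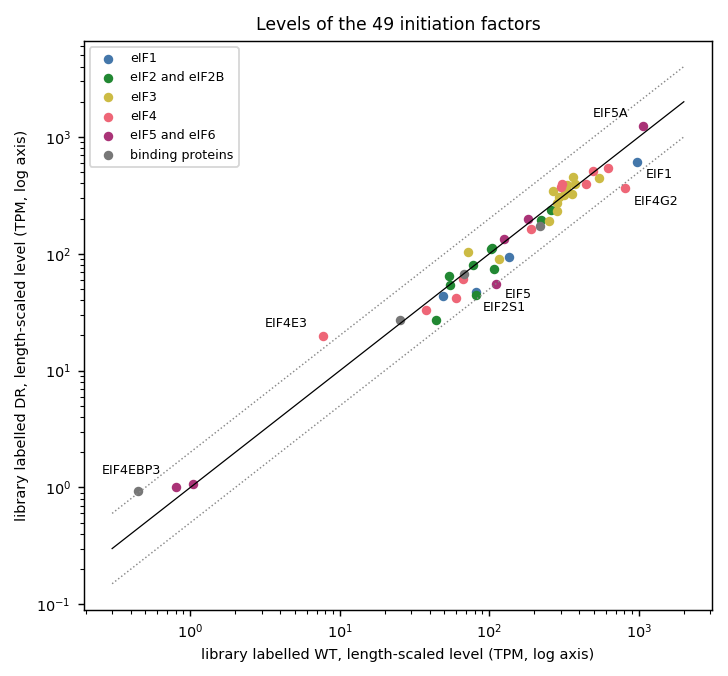
Length-scaled level of each initiation factor in TPM, WT-labelled library (x axis) against DR-labelled library (y axis), both on log axes, with a solid line of equality and dotted lines at 2-fold. EIF4G2 lies at 809 and 363 TPM below the lower dotted line, EIF5 and EIF2S1 lie close to it, and EIF4E3 lies at 7.71 and 19.9 TPM above the upper one.

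The subunits of eIF2 were unequal. EIF2S1, the alpha subunit that stress kinases phosphorylate, had 4621 and 5208 reads, or 83.0 and 150 CPM. Its log2 fold change was -0.85 (-0.91 to -0.79), a 1.80-fold lower level (1.73 to 1.88). EIF2S2, the beta subunit, had 154 and 174 CPM, a log2 fold change of -0.18 (-0.23 to -0.13). EIF2S3, the X-linked gamma subunit that binds GTP and the initiator tRNA, had 368 and 399 CPM, a log2 fold change of -0.12 (-0.15 to -0.09). Per length, EIF2S1 was the lowest of the 3 in both libraries, at 44.6 and 81.1 TPM, and its ratio to EIF2S3 was 0.189 (0.183 to 0.195) and 0.314 (0.304 to 0.324). The highest member of the whole eIF2 and eIF2B class was EIF2S3, at 236 and 258 TPM. EIF2S2 and EIF2S3 share 22.55% and 23.18% of their words with other annotated genes, and the part of such reads was not tested.

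Among the 5 subunits of eIF2B, the regulatory ones EIF2B1 (alpha) and EIF2B2 (beta) were lower and the others were not. EIF2B1 had 63.0 and 89.4 CPM, a log2 fold change of -0.50 (-0.58 to -0.44). EIF2B2 had 18.8 and 30.2 CPM, a log2 fold change of -0.67 (-0.81 to -0.56), and was the lowest of its class per length, at 27.0 and 43.8 TPM. EIF2B4, the delta subunit and the remaining regulatory one, had 40.9 and 41.0 CPM, with a log2 fold change of -0.003 (-0.10 to 0.09). The catalytic pair EIF2B3 (gamma) and EIF2B5 (epsilon) had log2 fold changes of 0.27 (0.18 to 0.37) and 0.05 (-0.01 to 0.12). Both lower subunits share words with other annotated genes, 20.1% for EIF2B1 (with DDX55) and 27.5% for EIF2B2 (mainly with AL049780.3), and the part of such reads was not tested. EIF2A and EIF2D, which deliver initiator tRNA outside the eIF2 cycle, had log2 fold changes of 0.11 each.

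The genes of eIF3, the large scaffold between ribosome, mRNA and eIF4G, differed little between the libraries. The 13 subunits other than EIF3CL had log2 fold changes from -0.37 (EIF3M) to 0.38 (EIF3H), with 7 above and 6 below 0, and 0 passed 0.5. The median of all 14 genes was 0.04. The scaffold subunits EIF3A and EIF3C had log2 fold changes of -0.28 each, at 554 and 672 CPM and at 573 and 697 CPM. EIF3B, which carries an RNA recognition motif, had 0.17 (0.14 to 0.19), EIF3L had 0.34 (0.31 to 0.38) and EIF3I, a WD-repeat subunit, had 0.25 (0.21 to 0.29). The smallest differences were those of EIF3D, EIF3F and EIF3G, between -0.03 and 0.06, and EIF3E (0.09) and EIF3K (-0.11) were not far from them.

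EIF3CL, a near-identical copy of EIF3C, was the only eIF3 gene past 0.5, with 5427 and 2334 reads and a log2 fold change of 0.54 (0.47 to 0.61). Since 98.8% of its words lie in EIF3C transcripts, and 96.8% of those of EIF3C in EIF3CL, the estimated counts of the pair depend on how reads were divided. With their reads summed, 37312 and 26568, the log2 fold change was -0.19 (-0.21 to -0.17).

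Per length, the 13 eIF3 subunits spanned 5.06-fold in the DR-labelled library and 4.68-fold in the WT-labelled library. EIF3J, which is only loosely bound to the complex, was the lowest in both, at 89.7 and 116 TPM. The next was EIF3M at 191 and 249 TPM. The highest was EIF3L (454 TPM) in the DR-labelled library, followed by EIF3C (444 TPM), and EIF3C (544 TPM) in the WT-labelled library. In the DR-labelled library the 9 other subunits lay between 234 and 393 TPM, and in the WT-labelled library these 9 and EIF3L lay between 265 and 372 TPM. EIF3L shares 59.7% of its words with transcripts of other annotated genes, and the part of such reads was not tested.

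**Figure D4:**
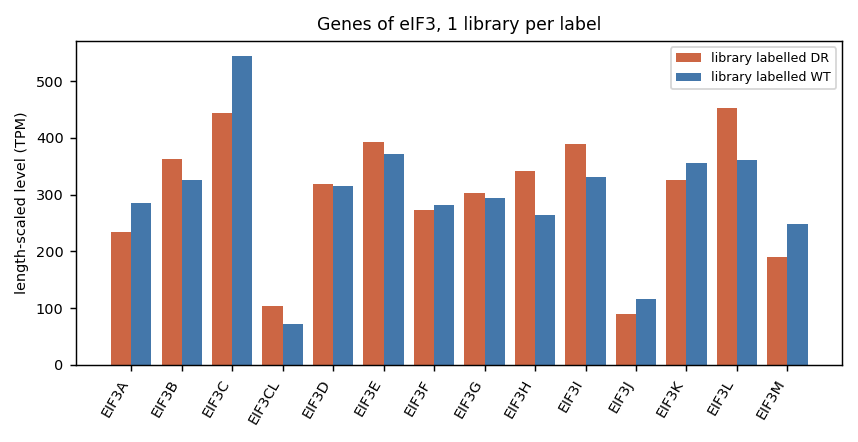
Length-scaled level (y axis, TPM, from 0) of each eIF3 gene in the DR-labelled library and the WT-labelled library, 1 library each and so without error bars. EIF3J at 89.7 and 116 TPM is the lowest apart from EIF3CL in the WT-labelled library (72.4 TPM), and EIF3C at 544 TPM is the highest bar.

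In the cap-binding family the member with the lowest level per length differed most. EIF4E3, a relative of eIF4E with an unusual mode of cap binding, had 2735 reads in the DR-labelled library and 657 in the WT-labelled library, or 49.1 and 18.9 CPM. Its log2 fold change was 1.36 (1.26 to 1.505), a 2.60-fold higher level (2.39 to 2.84), at percentile 95.7 of all genes kept. EIF4E had 3589 and 3183 reads, or 64.5 and 91.5 CPM, a log2 fold change of -0.50 (-0.57 to -0.44). EIF4E2, which represses bound mRNAs with GIGYF2, had 45.5 and 49.3 CPM, a log2 fold change of -0.11 (-0.20 to -0.02). It shares 32.51% of its words with other annotated genes, and the part of such reads was not tested. Per length, the ratio of EIF4E3 to EIF4E was 0.475 (0.451 to 0.499) in the DR-labelled library and 0.129 (0.118 to 0.140) in the WT-labelled library, and EIF4E3 was the lowest gene of the eIF4 class in both, at 19.9 and 7.71 TPM. EIF4E has many processed pseudogenes, and 5.59% of its words were found in other transcripts. The transcript searched held 11474 words, while the deposited length is 3441 bases, so the share over the length counted may be larger.

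The helicase genes lay on opposite sides of 0. EIF4A1, the main helicase of eIF4F, had 461 and 520 CPM, a log2 fold change of -0.17 (-0.20 to -0.14). EIF4A2 had 317 and 255 CPM, a log2 fold change of 0.31 (0.28 to 0.35). The pair shared 0% of its words, and its EIF4A1 to EIF4A2 ratio per length was 1.46 (1.44 to 1.49) and 2.05 (1.995 to 2.10). EIF4A3, the exon junction helicase, had a log2 fold change of -0.21 (-0.26 to -0.15). The cofactors that stimulate the helicase, EIF4B and EIF4H, had 921 and 894 CPM and 440 and 343 CPM, with log2 fold changes of 0.04 (0.02 to 0.06) and 0.36 (0.33 to 0.39). The highest eIF4 gene per length was EIF4A1 (545 TPM) in the DR-labelled library and EIF4G2 (809 TPM) in the WT-labelled library. All words of EIF4A1 (100%) also lie in transcripts of other annotated genes, so its counts depend on how such reads were assigned. EIF4B shares 37.08% of its words with other annotated genes, and the part of such reads was not tested.

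The binding proteins showed no member past 0.5. EIF4EBP1, which blocks eIF4E until mTORC1 phosphorylates it, had 68.2 and 85.0 CPM, a log2 fold change of -0.32 (-0.39 to -0.25). EIF4EBP2 had 227 and 224 CPM, a log2 fold change of 0.02 (-0.02 to 0.06). EIF4EBP3 was low, with 17 and 5 reads, and its interval (-0.41 to 2.88) held 0. It overlaps the readthrough gene ANKHD1-EIF4EBP3 (4939 and 3324 reads), which contains 71.8% of its words. EIF4ENIF1, the shuttling protein that carries eIF4E into the nucleus, had 43.3 and 40.2 CPM, a log2 fold change of 0.11 (0.01 to 0.20). Per length the ratio of EIF4EBP1, the highest of the class, to EIF4E was 4.15 (3.97 to 4.35) and 3.65 (3.47 to 3.84), and that of EIF4EBP2 to EIF4E was 1.61 (1.55 to 1.67) and 1.12 (1.08 to 1.17).

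Genes that act on initiation from outside were read from 3 lists. The first held 9 genes, the eIF2 kinases and phosphatase subunits together with GCN1, DNAJC3 and IMPACT, with a median of -0.19. Of these, 1 was lower by 0.5 or more (11.1%) and 0 were higher, beside 14.1% and 17.6% of all genes kept. It was PPP1R15A (GADD34), the stress-induced subunit that directs dephosphorylation of eIF2 alpha, with 1589 and 5374 reads, or 28.5 and 154 CPM. Its log2 fold change was -2.42 (-2.52 to -2.35), larger in size than that of any initiation factor. Its constitutive counterpart PPP1R15B had -0.45 (-0.51 to -0.41), and the kinases lay between -0.19 for EIF2AK3 (PERK) and 0.38 for EIF2AK4 (GCN2).

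Of 14 genes of mTORC1 and MNK signalling, 1 was higher (7.14%) and 0 were lower, beside 17.6% and 14.1% of all genes kept, and the median was 0.01. DEPTOR, an inhibitor bound to mTOR, had 13933 and 3097 reads, or 250 and 89.0 CPM, and a log2 fold change of 1.49 (1.44 to 1.55). MKNK2, a kinase of eIF4E, lay just outside the limit at 0.49 (0.45 to 0.53). MTOR itself had -0.23 (-0.28 to -0.19).

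Of 20 partners of initiation, 3 were higher and 4 were lower, with a median of -0.03. The higher ones were PAIP2 (0.81) and PAIP2B (0.88), inhibitors of the poly(A)-binding protein, and CYFIP1 (0.80), a repressor that binds eIF4E. The lower ones were DENR (-0.81), which recycles subunits and aids reinitiation, the RNA helicases DDX3X (-0.79) and DHX9 (-0.76), and ABCE1 (-0.55), the ribosome recycling factor. PABPC1, the main poly(A)-binding protein, had 1922 and 2134 CPM and a log2 fold change of -0.15 (-0.16 to -0.14). The shares, 3 of 20 higher (15%) and 4 of 20 lower (20%), lay near the background of all genes kept (17.6% and 14.1%).

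**Figure D5:**
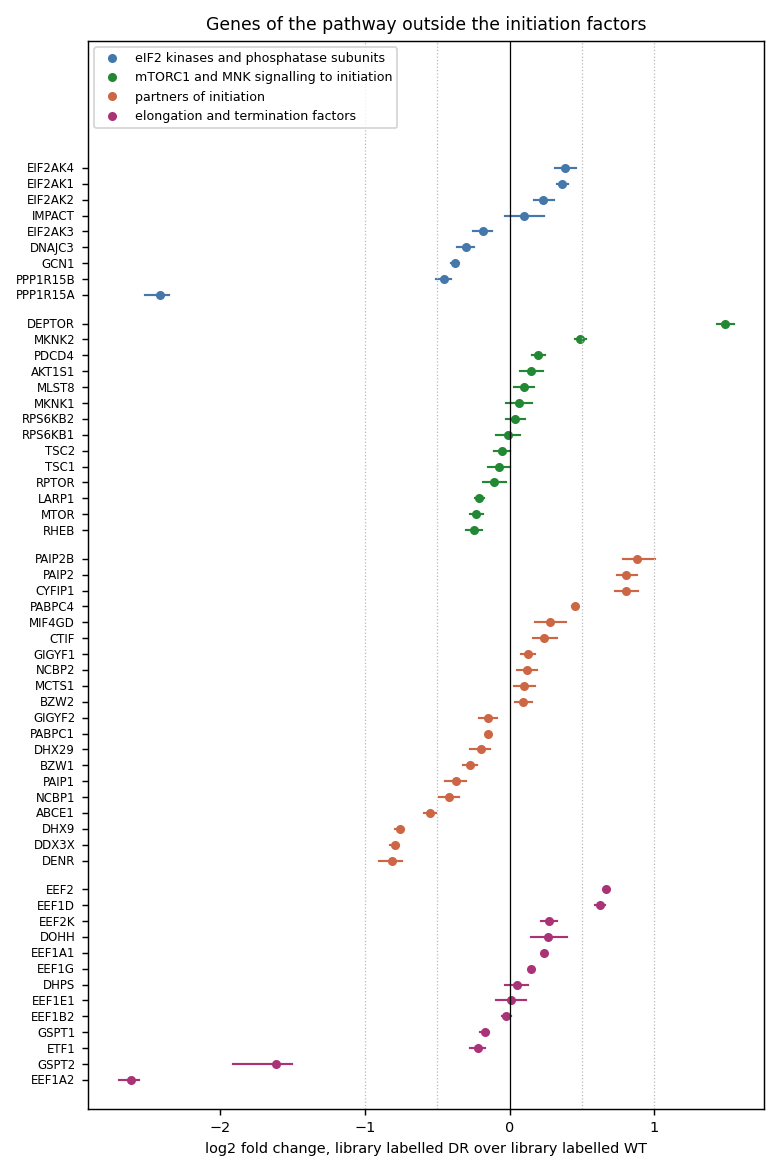
Log2 fold change (x axis, DR-labelled library over WT-labelled library) of each gene in 4 lists that act beside the initiation factors, where bars are 95% counting intervals. EEF1A2 (-2.61), PPP1R15A (-2.42), GSPT2 (-1.62) and DEPTOR (1.49) lie furthest from 0.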

How the data were processed

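The authors deposited 1 table of 18930 genes with estimated counts for each of the 2 libraries, not scaled for library size, and the length of each gene. The submitters' processing notes name Bowtie 0.12.2 and hg19, while the counting tool and annotation are not given in the sources used here. The table also holds columns of the authors' comparison (log2 ratio, p and q), which were not used. No counts were given for 663 genes. Estimated counts were fractional for 9108 genes, 19 initiation factors among them, and were rounded.

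A gene was kept when its reads in both libraries summed to 10 or more, which left out 2057. Library sizes were scaled by TMM (edgeR 4.0.16, R 4.3.3), and log2 fold changes used a pseudocount of 0.5 CPM. With 1 library per label no model with a residual error was possible, and no p-value was computed. Intervals came from SciPy 1.17.1. Length-scaled levels are reads divided by deposited length, scaled to the same sum in each library. At this depth 3 reads were worth 0.0539 CPM (DR) and 0.0862 CPM (WT).

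The calculation of fold changes and intervals was checked on simulated Poisson counts at the observed means and library sizes. There 199 of 200 genes changed by 2 on the log2 scale passed 1, and 95.5% of the intervals over 16163 genes held the true value. The 200 genes were drawn only from those with 50 or more expected reads, and changes near the limit of 0.5 were not simulated. Simulated counts carry counting error only, so the run cannot say how far replicate libraries would differ. Shared 50-base words came from the longest coding transcript of each member in GENCODE release 29, against transcripts of all other genes on either strand. Where that transcript is longer than the deposited length, as for EIF1, EIF2B2, EIF4E, EIF4E3, EIF3F, EIF3H and EIF3M, the share may be understated. The cut of 20% carries the same limit. The read length is not given in the sources used here. CACGTG was planned, and CCAAT and GGGCGG were added after the values were seen. Members named singly are those past 0.5, EIF4G2, the highest and lowest of each class per length, and the core subunits. The promoters shown were chosen after their values were seen. Members and lists were chosen with earlier results of these data known. Alternatives were DESeq2 1.42.0 size factors, library totals, pseudocounts of 0.1 and 5 CPM, no filter and at least 50 reads.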

Additional observations from a re-analysis of the deposited data

How the results depend on the processing

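No paired analysis was possible because each label has 1 library, and for the same reason none could be left out. The count of 9 lower members was 9 with DESeq2 size factors and a pseudocount of 0.1 CPM, 7 with a pseudocount of 5 CPM, no filter or at least 50 reads, and 6 with library totals, since EIF2B1, EIF4E and EIF1AX lie close to the limit of 0.5. The count of 2 higher members was 3 with a pseudocount of 0.1 CPM and 2 under the other settings tried, and it was 1 without the 12 members that share 20% or more of their words with other genes (added after seeing the data), where 7 were lower. The median over all members stayed between -0.007 and 0.04. Library totals moved the median of all genes from 0.007 to 0.04, and with it the eIF1 median from -0.59 to -0.54 and EIF4G2 from -1.14 to -1.10, outside its counting interval, with EIF1, EIF1AX and EIF5 moved alike. A pseudocount of 5 CPM took EIF1B to -0.66 and EIF4E3 to 1.18, and left 1470 genes higher and 1446 lower over all genes, beside 2851 and 2289. With reads not divided by length the span of the eIF3 subunits was 5.55-fold in the DR-labelled library and 5.25-fold in the WT-labelled library. None of the 11 members past 0.5 changed direction under any of the settings tried. Depth limits EIF4EBP3, EIF5A2 and EIF5AL1, where a difference was not detectable.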

Other observations

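Elongation and termination genes were read beside the initiation factors. Of 13 such genes, 2 were higher in the DR-labelled library by a log2 fold change of 0.5 or more and 2 were lower (15.4% each). These shares were close to the 17.6% and 14.1% of all genes kept and the 12.0% and 14.5% of those at 10 CPM or more. Both lower genes also passed 1 in size (15.4%), beside 4.19% and 3.68% in these 2 backgrounds. By that size 0 were higher, beside 7.42% and 4.03%. The median of the list was 0.05. EEF2, the translocase of the ribosome, had 4722 and 2977 CPM in the libraries labelled DR and WT, a log2 fold change of 0.67 (95% counting interval 0.66 to 0.68). EEF1D, a subunit of the exchange factor of eEF1A, had 421 and 273 CPM, a log2 fold change of 0.62 (0.59 to 0.66). EEF1A2, the eEF1A form of muscle and neurons, had 2058 and 7969 reads, or 37.0 and 229 CPM, a log2 fold change of -2.61 (-2.70 to -2.56). The common form EEF1A1 had 21521 and 18260 CPM, a log2 fold change of 0.24 (0.23 to 0.24), so the paralogues lay on opposite sides of 0. GSPT2, the retrogene copy of the release factor gene GSPT1, had 295 and 601 reads and a log2 fold change of -1.62 (-1.91 to -1.50), while GSPT1 had -0.17 (-0.20 to -0.14). The enzymes that make hypusine on eIF5A, DHPS and DOHH, had 0.05 (-0.03 to 0.13) and 0.27 (0.15 to 0.39).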
